A study of Mus musculus with 6 samples.

Results

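Chemokines and inflammatory cytokines were examined as 1 family of messages in GC-2spd cells, a mouse line derived from spermatocytes of BALB/c background and bought from the American type culture collection. The members were the protein-coding genes of the GENCODE M21 annotation whose symbols are Cx3cl1, or Ccl or Cxcl followed by digits alone. Added to these were Il1a, Il1b, Il6, Il11, Il18, Il33, Tnf, Lif, Tslp, Csf1, Csf2, Csf3, Nfkbia and Ptgs2. Chemokine symbols with a letter after the digits, such as Ccl27a, were not members. This gave 49 gene identifiers among the 54886 listed in the files, carried by 47 symbols, and 35 of the identifiers were chemokines and 14 were other members. The study asked how fine particulate matter (PM2.5) alters the transcriptome of these cells. The PM2.5 group was exposed to 100 μg/mL for 48 h (3 libraries), and the control group received no particles (0 μg/mL, 3 libraries). The labels name normal culture medium as the control, and the study's methods add that PBS was included. Both groups were the same line in the same supplemented medium, and total RNA was sequenced as paired-end reads of 150 bases. The labels do not say whether the replicates came from separate cultures, so a p-value here measures only the spread between these libraries.

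Chemokines are small secreted proteins that direct the migration of cells through receptors coupled to G proteins. Their genes, like those of interleukins, colony-stimulating factors and cyclooxygenase-2, are transcribed in many non-immune cell types after inflammatory stimuli, through NF-kB, AP-1 and interferon-regulated factors. In the testis such signals are known from Sertoli cells, peritubular cells and macrophages, and excess cytokine is known to disturb the germ cells.

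Levels were given by the authors as FPKM (fragments scaled to transcript length and to library size), and whole reads per gene were recovered from them. The libraries held 16209352 to 18003201 recovered reads. Control replicate 2 stood apart from the other libraries. Across genes, its log2(FPKM + 1) values correlated at r = 0.742 and 0.745 with the other controls, which correlated at 0.992 with each other. Mitochondrial genes took 14.5% of its reads and 1.65% to 1.95% of those of the other libraries. The depth behind its FPKM was 12971000, below its 16209352 recovered reads. In the other libraries that depth was 17742000 to 18559000, above their recovered reads. Relative to the other libraries, its levels are thus higher in FPKM than per recovered read. Control replicate 2 lay outside the range of the other 5 libraries in 82.9% of all genes tested and in 11 of the 16 members tested, so fold changes are given with and without it. The part of this library's difference in the results was not tested beyond leaving it out. The labelled cell type was not seen in its markers. None of 13 germ cell markers reached a mean FPKM of 1, 5 of them (Dazl, Spo11, Hormad1, Piwil1 and Pgk2) were at 0 in every library, and their summed FPKM was 0.454 to 2.69 in the control group and 0.0770 to 0.612 in the PM2.5 group. Of 6 mesenchymal markers, 5 were tested, led by Col1a1 (193 to 452 FPKM) and Vim (254 to 698 FPKM), while Pdgfrb was at 2.77 to 4.17 FPKM and Thy1 at no more than 0.0257 FPKM. Their summed FPKM was 885 to 1370 in the control group and 662 to 875 in the PM2.5 group, and Col1a2 and Col3a1 were lower in every PM2.5 library (limma adjusted p = 0.875 for each with 6 libraries, and 0.0802 and 0.144 without control replicate 2). Their part in the results was not tested. Of 10 leukocyte markers, 5 were at 0 in all libraries, Ptprc and Adgre1 among them, and 2 were tested. These were Cd14, at 5.39 to 12.3 FPKM, and Cd68, at 15.5 FPKM in control replicate 2 and 0.750 to 1.80 in the others. The summed level of the list was 6.81 to 27.8 FPKM in the control group and 7.89 to 8.75 FPKM in the PM2.5 group. Of 8 Sertoli and Leydig cell markers, 2 were tested. Gata4 was at 11.1 to 22.3 FPKM and Star at 1.58 to 2.49 FPKM, with the groups overlapping in both. Of 5 endothelial markers, 0 were tested, and their highest value in any library was 0.343 FPKM. The part of these last lists in the results was not tested.

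The cells held abundant message of a few members and little or none of most. Of the 49 identifiers, 16 reached a mean of 1 FPKM over the 6 libraries and were tested, 11 of them chemokines. Another 10 had at least 10 reads in some library without reaching that mean, and 23 had fewer than 10 reads in every library. Ccl7, Ccl2, Cxcl12, Csf1, Cxcl10, Cxcl1 and Nfkbia led, followed by Ccl5, Cxcl5, Cxcl16, Ptgs2, Lif, Cx3cl1, Cxcl13, Il18 and Cxcl14. Summed over all members, the level was 564, 543 and 555 FPKM in control replicates 1 to 3 and 575, 605 and 704 FPKM in PM2.5 replicates 1 to 3. The 3 highest members made up 50.3% to 59.7% of that sum in the control group and 64.4% to 71.2% in the PM2.5 group. Cxcl10 ranked 2, 1 and 3 among the members of the control group and 7, 7 and 5 in that of PM2.5, whereas Ccl2 ranked 4 in every control library and 2, 1 and 2 after exposure.

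**Figure D1:**
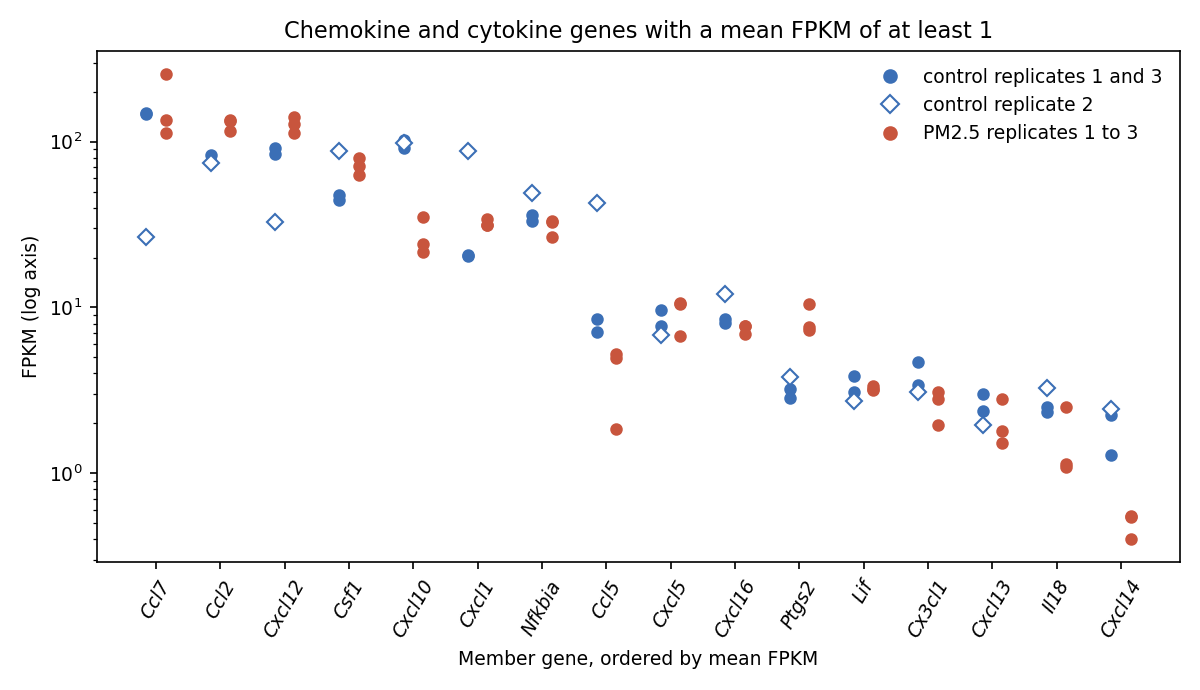
FPKM (log axis) of the 16 tested members in each library, ordered by mean, with control replicate 2 as an open diamond. Cxcl10 (91.5 to 102 FPKM in the control group, 21.7 to 35.0 in the PM2.5 group) and Cxcl14 were lower in all PM2.5 libraries, Ptgs2 and Ccl2 were higher in all of them, and control replicate 2 departed most from the other controls in Ccl7, Cxcl1 and Ccl5.

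A gene was called changed at a Benjamini-Hochberg adjusted p under 0.05 over all 11884 genes tested by limma and an absolute log2 fold change above 1, on the log2(FPKM + 1) scale, which understates the change of low genes. With all 6 libraries, 0 of the 16 tested members were called, against 0.0926% of all genes. By unadjusted p under 0.05 there were 4 members, against 3.8% of all genes: Ccl2 and Ptgs2 were higher and Cxcl10 and Cxcl14 lower in the PM2.5 group. The values of the groups did not overlap for 3 higher members (Ccl2, Cxcl12 and Ptgs2), where 8.35% of all genes did the same, and for 4 lower members (Cxcl10, Ccl5, Cxcl16 and Cxcl14), where 6.85% did. Cxcl14 passed the mean filter only through the control group, which is the group where it was high.

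Without control replicate 2, 1 member was called, Cxcl10, which fell, against 0.707% of all genes. By unadjusted p there were 7 members, against 15.9% of all genes, with Cxcl12, Csf1 and Cxcl1 added on the higher side. The groups then did not overlap for 5 higher members (17.7% of all genes) and for 5 lower members (19.6%), with Csf1, Cxcl1 and Cx3cl1 joining those named above. In both fits the log2 fold change was positive for 7 tested members and negative for 9. The median log2 fold change of the tested members was -0.12 with all libraries and -0.11 without control replicate 2, where that of all genes tested was 0.02 and -0.01.

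**Figure D2:**
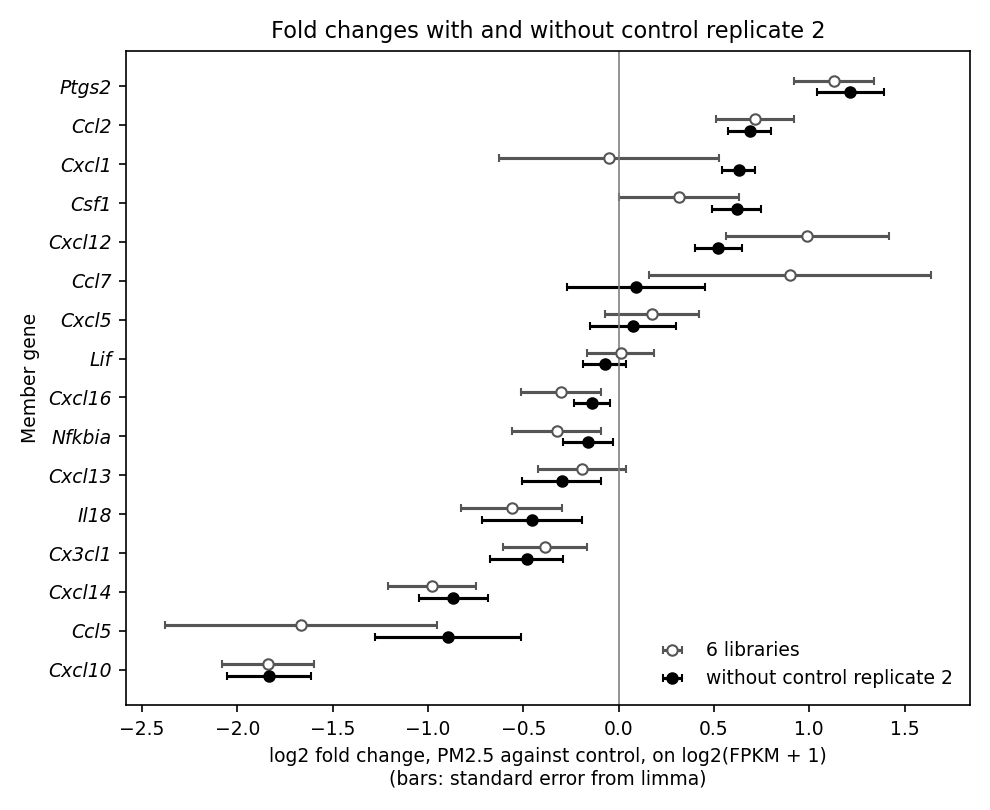
Log2 fold change (PM2.5 against control, on log2(FPKM + 1)) of the 16 tested members with the standard error from limma, for 6 libraries (open) and without control replicate 2 (filled). Cxcl10 stood at -1.84 and -1.83 in the 2 fits and Ptgs2 at 1.13 and 1.22, whereas the value of Cxcl1 moved from -0.05 to 0.63 and that of Ccl7 from 0.90 to 0.09.

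The 5′ flanks of several members are shown because some members share motifs there that the choice of genes did not use. The windows are those of RefSeq on GRCm38.p6, running from 250 bases before the start to 50 after it, and 34 of the 47 symbols had 37 windows. The tested members Ccl7, Ccl2, Ccl5, Cxcl5 and Cxcl16 had none. An NF-kB motif was found on either strand in 24.3% of these windows (9 of 37), against 4.51% of all 32851 windows. A TATAAA box was found in 43.2% against 13.6%, and the AP-1 motif TGANTCA in 21.6% against 7.81%. Of the 11 tested members with a window, 4 held an NF-kB motif, 4 a TATAAA box and 2 an AP-1 motif. Ccl20, Ccl9, Cxcl2, Cxcl3 and Il6, which also held an NF-kB motif, were below the mean filter. The core of the interferon-stimulated response element (TTTC repeated after any 2 bases) was found in 8.11% (3 windows, those of Ccl19, Cxcl10 and Cxcl14) against 3.44%. The GCGTG core bound by the aryl hydrocarbon receptor was found in 32.4% of member windows and 32.4% of all windows. Overlapping matches of a motif were counted once per window, and a match is a string of letters, not evidence of binding.

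The flank of Cxcl10 is shown whole because this gene was the 1 member called, without control replicate 2, and its window held all 3 of the inflammatory motifs. It lies at chr5:92348890-92349139 on the minus strand and is the 250 bases that end at the start. Capitals mark, in order, the interferon-stimulated element core (on the opposite strand, from 213 to 204 bases before the start), an NF-kB motif (159 to 150), another NF-kB motif (103 to 94) and an AP-1 motif (74 to 68). A GCGTG core on the opposite strand (222 to 218) is left in lower case.
Cxcl10: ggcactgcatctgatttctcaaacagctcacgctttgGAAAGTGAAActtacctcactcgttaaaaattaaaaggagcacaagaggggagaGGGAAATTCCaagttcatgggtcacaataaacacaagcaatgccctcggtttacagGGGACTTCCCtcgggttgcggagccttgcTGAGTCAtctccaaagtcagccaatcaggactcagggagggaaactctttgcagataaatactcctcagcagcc

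Stretches of 60 bases are shown for 5 other tested members, each around a match in capitals, as examples of the motifs beside members with non-overlapping or high levels. The Cxcl14 stretch (chr13:56296682-56296741, minus strand) holds the interferon-stimulated element core. The stretches of Cxcl1 (chr5:90891155-90891214, plus strand), Csf1 (chr3:107760580-107760639, minus strand) and Nfkbia (chr12:55492648-55492707, minus strand) hold NF-kB motifs, and the capitals in Cxcl1 cover a pair of overlapping matches on opposite strands. The Ptgs2 stretch (chr1:150099911-150099970, plus strand) holds the GCGTG core and its window had no NF-kB match in these letters.
Cxcl14: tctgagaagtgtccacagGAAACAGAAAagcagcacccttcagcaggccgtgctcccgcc
Cxcl1: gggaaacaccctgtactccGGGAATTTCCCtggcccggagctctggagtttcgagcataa
Csf1: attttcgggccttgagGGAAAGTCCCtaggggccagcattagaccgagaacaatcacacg
Nfkbia: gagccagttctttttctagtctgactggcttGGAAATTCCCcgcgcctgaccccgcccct
Ptgs2: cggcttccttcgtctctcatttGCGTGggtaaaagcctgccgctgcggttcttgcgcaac

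The 3 chemokines grouped here as interferon-inducible, Cxcl10, Cxcl9 and Ccl5, had lower values in every PM2.5 library than in any control library. The grouping need not hold every such gene. Of the 3, Cxcl10 was called, in the fit without control replicate 2. Of all genes tested, which do not include Cxcl9, 6.85% were lower without overlap with 6 libraries and 19.6% without control replicate 2. Cxcl10 encodes a ligand of CXCR3 that attracts activated T cells (chromosome 5, 92346638 to 92348889, minus strand, GRCm38). In FPKM it stood at 102, 97.8 and 91.5 in control replicates 1 to 3 (4258, 2857 and 3715 reads), and 21.7, 24.1 and 35.0 FPKM in PM2.5 replicates 1 to 3 (873, 964 and 1423 reads). The lowest control library was thus well above the highest exposed one, and control replicate 2 lay between the other controls in FPKM. The control mean was 97.1 ± 5.23 FPKM (SD, n = 3) and the PM2.5 mean 26.9 ± 7.06 (SD, n = 3), a 3.60-fold lower level. The log2 fold change was -1.84 ± 0.24 (SE) with 6 libraries, where limma gave an adjusted p = 0.121, and -1.83 ± 0.22 without control replicate 2, where limma gave an adjusted p = 0.0450. Leaving out any of control replicates 1 and 3 or PM2.5 replicates 1 and 2 from the latter fit as well ended the call, with a log2 fold change of -1.70 to -1.91. In whole-cell RNA, fewer cells expressing a gene and less of its RNA per cell cannot be told apart. Cxcl10 overlaps Art3 on the opposite strand, and how the authors counted overlapping genes is not given in the sources used here.

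Cxcl9, which encodes another CXCR3 ligand, is the neighbour of Cxcl10, at a distance of 18.6 kb. It was below the mean filter and was not tested in either fit. Its reads numbered 34, 50 and 19 in the control group and 1, 3 and 5 after exposure, so the groups did not overlap. In FPKM these were 0.607, 1.28 and 0.349 against 0.0186, 0.0561 and 0.0917. The summed reads were 103 in the control group and 9 in the PM2.5 group. The ratio of the groups' reads, scaled by the depth behind each library's FPKM, was 12.4 with a 95% interval of 6.28 to 27.9, and 8.64 (4.22 to 19.9) without control replicate 2. These intervals cover counting error only and not the spread between libraries. With no filter on low values, limma gave Cxcl9 a log2 fold change of -0.69 (adjusted p = 0.807) with 6 libraries and -0.48 (adjusted p = 0.258) without control replicate 2.

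Ccl5, which encodes an attractant of T cells and monocytes, had its difference widened by control replicate 2. Its level was 7.13, 42.9 and 8.55 FPKM in the control libraries and 5.25, 4.99 and 1.84 FPKM in the PM2.5 libraries. All 3 exposed libraries were below all controls, but control replicate 2 was 5.47-fold above the mean of the other controls. The log2 fold change was -1.67 ± 0.71 (SE; limma adjusted p = 0.875) and -0.89 ± 0.38 without that library (limma adjusted p = 0.352). The median log2 fold change of Cxcl10 and Ccl5, the tested members of the 3 chemokines grouped as interferon-inducible, was -1.75 and, without control replicate 2, -1.36.

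**Figure D3:**
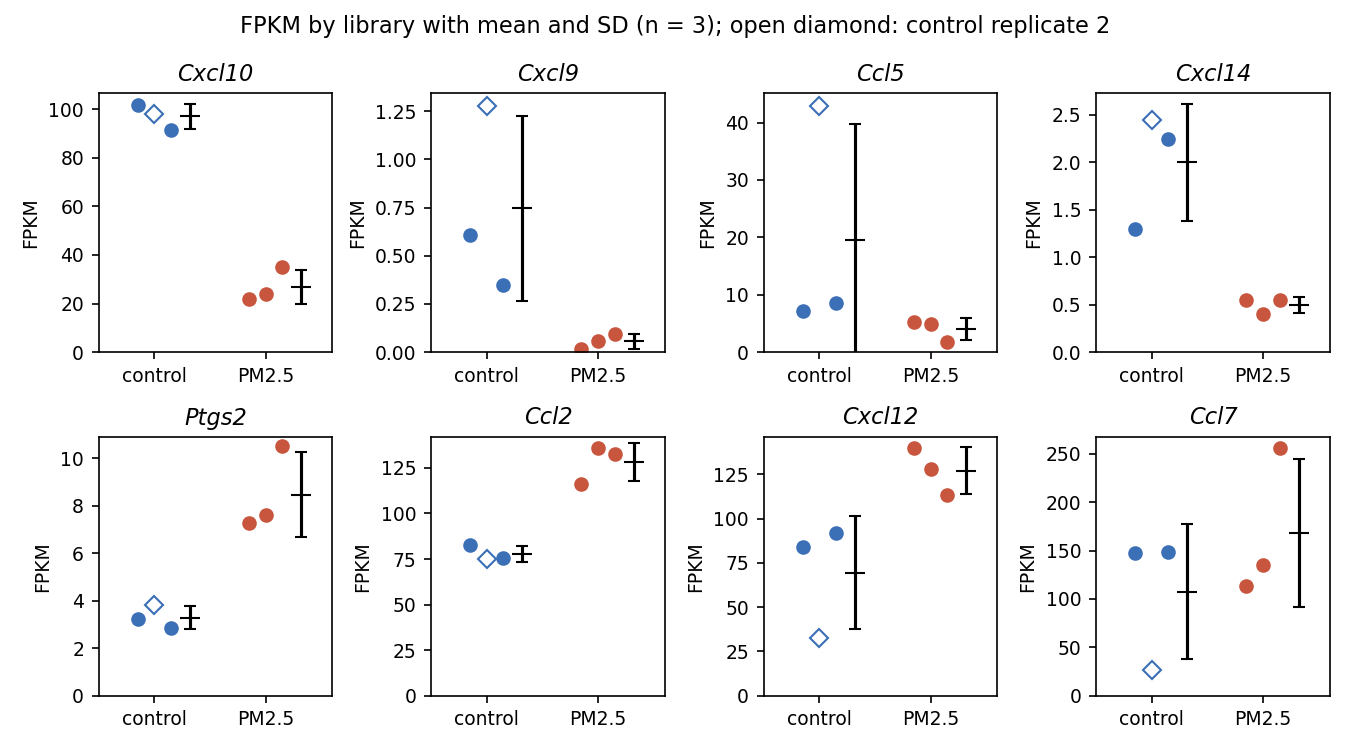
FPKM of 8 members in each library, with the mean and SD of each group (n = 3, the bar cut at 0 for Ccl5) and control replicate 2 as an open diamond. The top row holds members with all PM2.5 libraries below all controls (Cxcl10, Cxcl9, Ccl5 and Cxcl14). In the bottom row Ptgs2, Ccl2 and Cxcl12 had all PM2.5 libraries above all controls, and Ccl7 overlapped.

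The monocyte-attracting ligands of CCR2 were among the most abundant members, and the pair differed in how the libraries behaved. Ccl2 encodes the main attractant of monocytes (chromosome 11, 82035571 to 82037453). Its level was 82.6, 74.8 and 75.8 FPKM in the control libraries and 116, 136 and 132 FPKM in the PM2.5 libraries. The groups did not overlap, and in FPKM control replicate 2 was within 1.06-fold of the mean of the other controls. The means were 77.7 ± 4.24 and 128 ± 10.5 FPKM (SD, n = 3 each), a ratio of 1.65. Its log2 fold change was 0.71 ± 0.20 (SE) with limma adjusted p = 0.875, and 0.69 ± 0.11 without control replicate 2 with limma adjusted p = 0.0830, so Ccl2 did not pass in either fit.

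Ccl7, which lies 8.26 kb from Ccl2 and also encodes a CCR2 ligand, was at 148, 26.8 and 148 FPKM in the control libraries and at 113, 135 and 256 FPKM in the PM2.5 libraries. Control replicate 2 was 5.53-fold below the mean of the other controls, and PM2.5 replicate 3 was the highest library. The log2 fold change was 0.90 ± 0.74 (SE; limma adjusted p = 0.875) and 0.09 ± 0.36 without control replicate 2 (limma adjusted p = 0.920). The FPKM of Ccl7 relative to that of Ccl2 was 1.79, 0.358 and 1.95 in control replicates 1 to 3 and 0.975, 0.991 and 1.93 in PM2.5 replicates 1 to 3. Control replicate 2 and PM2.5 replicates 1 and 2 thus had no more Ccl7 than Ccl2, and the other 3 libraries had more. Ccl8, Ccl3, Ccl4 and Ccl12, other monocyte-attracting genes, had fewer than 10 reads in every library.

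Of the neutrophil-attracting chemokines, which act through CXCR2, Cxcl1 and Cxcl5 were tested. Cxcl1 was at 20.4, 87.6 and 20.6 FPKM in the control libraries and at 31.3, 34.1 and 31.5 FPKM in the PM2.5 libraries. The exposed libraries lay together between control replicate 2 and the other 2 controls. With 6 libraries the log2 fold change was -0.05 ± 0.58 (SE; limma adjusted p = 0.977). Without control replicate 2, whose level was 4.27-fold that of the other controls, it was 0.63 ± 0.09 (limma adjusted p = 0.0634), with a ratio of means of 1.57. Cxcl5 was at 9.60, 6.83 and 7.68 FPKM in the control libraries and at 6.73, 10.5 and 10.7 FPKM in the PM2.5 libraries. These values overlapped, and the log2 fold change was 0.17 ± 0.25 (SE; limma adjusted p = 0.876), or 0.08 ± 0.23 without control replicate 2 (limma adjusted p = 0.889). Cxcl2 had 4 to 11 reads and Cxcl3 had 6 to 17 reads per library, the highest of both in control replicate 2. Of the distinct sequences of 31 bases in their transcripts, 7.59% for Cxcl2 and 5.46% for Cxcl3 also occur in transcripts of other genes, while Cxcl1 shares none.

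Among the homeostatic and other chemokines, Cxcl12 and Cxcl14 differed most. Cxcl12 encodes the ligand of CXCR4 that guides stem and germ cell migration. It was at 84.2, 32.7 and 91.6 FPKM in the control libraries and at 140, 128 and 113 FPKM in the PM2.5 libraries. All exposed libraries were above all controls, and control replicate 2 was 2.69-fold below the mean of the other controls. The means were 69.5 ± 32.1 and 127 ± 13.5 FPKM (SD, n = 3 each), a ratio of 1.83 that was 1.45 without that library. Its log2 fold change was 0.99 ± 0.43 (SE; limma adjusted p = 0.875), and 0.52 ± 0.13 without control replicate 2 (limma adjusted p = 0.163).

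Cxcl14, a chemokine of epithelia and fibroblasts, was at 1.30, 2.45 and 2.25 FPKM in the control libraries (44, 58 and 74 reads) and at 0.551, 0.401 and 0.545 FPKM in the PM2.5 libraries (18, 13 and 18 reads). No exposed library reached the lowest control. The means were 1.997 ± 0.614 and 0.499 ± 0.0851 FPKM (SD, n = 3 each), a 4.001-fold lower level in the PM2.5 group. On the log2(FPKM + 1) scale the fold change was -0.98 ± 0.23 (SE; limma adjusted p = 0.590), and -0.87 ± 0.18 without control replicate 2 (limma adjusted p = 0.130). On recovered reads, voom in limma gave Cxcl14 a log2 fold change of -1.90 with 6 libraries, and it was not called there either.

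Cxcl16, a membrane-bound chemokine and scavenger receptor, was at 8.58, 12.02 and 8.10 FPKM in the control libraries and at 6.95, 7.76 and 7.71 FPKM in the PM2.5 libraries. The groups did not overlap, though by a narrow margin, and the log2 fold change was -0.30 ± 0.21 (SE; limma adjusted p = 0.875), or -0.14 ± 0.10 without control replicate 2, the highest library (limma adjusted p = 0.522). Cxcl16 overlaps Zmynd15 on the opposite strand, and 18.5% of its sequences of 31 bases occur in transcripts of other genes. Cx3cl1, which encodes fractalkine, the tethered ligand of CX3CR1, was at 4.66, 3.08 and 3.42 FPKM in the control libraries and at 2.79, 3.08 and 1.96 FPKM in the PM2.5 libraries. The groups met at 3.08 FPKM, and the log2 fold change was -0.39 ± 0.22 (SE; limma adjusted p = 0.875) and -0.48 ± 0.19 without control replicate 2 (limma adjusted p = 0.326). Cxcl13, the B cell attractant, was at 2.39, 1.94 and 2.99 against 1.80, 1.52 and 2.79 FPKM and overlapped (log2 fold change -0.19 ± 0.23, limma adjusted p = 0.875, and -0.30 ± 0.21 without control replicate 2, limma adjusted p = 0.532). Ccl25, a thymic and intestinal chemokine, was below the filter with 99, 153 and 82 reads against 72, 60 and 85 and overlaps Elavl1 on the opposite strand, and Ccl9 had 12, 1 and 26 reads against 17, 24 and 17.

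The classical inflammatory cytokines were at or near 0. In the interleukin-1 family only Il18 was tested, a cytokine that requires cleavage by the inflammasome. It was at 2.35, 3.29 and 2.53 FPKM in the control libraries and at 1.14, 1.09 and 2.52 FPKM in the PM2.5 libraries. PM2.5 replicates 1 and 2 were below every control, replicate 3 was not, and the log2 fold change was -0.56 ± 0.26 (SE; limma adjusted p = 0.875) and -0.46 ± 0.26 without control replicate 2 (limma adjusted p = 0.462). Il33, a nuclear alarmin, had 21, 4 and 21 reads against 14, 9 and 14. Il1b had 0 reads in every library and Il1a had 3 reads in PM2.5 replicate 3 and 0 elsewhere.

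Lif, a cytokine of the interleukin-6 family known for maintaining stem cells, was at 3.07, 2.75 and 3.89 FPKM in the control libraries and at 3.35, 3.21 and 3.17 FPKM in the PM2.5 libraries. The groups overlapped, with a log2 fold change of 0.01 ± 0.18 (SE; limma adjusted p = 0.984) and -0.07 ± 0.11 without control replicate 2 (limma adjusted p = 0.783). Il6 had 14, 21 and 10 reads in the control group against 11, 5 and 26 after exposure, and Il11 had 5 to 11 reads per library. Tslp, an epithelial alarmin, had 7, 12 and 21 reads against 5, 5 and 29. Tnf had at most 3 reads in a library. The groups overlapped in Il6, Il11, Tslp and Tnf, none of which passed the mean filter.

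Of the colony-stimulating factors, Csf1, which supports macrophage survival, was expressed. It was at 44.7, 87.6 and 47.5 FPKM in the control libraries and at 80.1, 71.7 and 62.9 FPKM in the PM2.5 libraries. The exposed libraries lay above control replicates 1 and 3 and below control replicate 2. The log2 fold change was 0.31 ± 0.32 (SE; limma adjusted p = 0.875) with 6 libraries and 0.62 ± 0.13 without control replicate 2 (limma adjusted p = 0.129), where the ratio of means was 1.55. Csf3, the granulocyte factor, had 14 reads in control replicate 2 and 0 to 6 in the other libraries, and Csf2 had 0 reads in every library.

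Ptgs2, which encodes the inducible cyclooxygenase-2 that commits arachidonic acid to prostaglandins, had the largest positive fold change of the tested members in both fits. It was at 3.22, 3.80 and 2.85 FPKM in the control libraries (274, 226 and 235 reads) and at 7.27, 7.61 and 10.5 FPKM in the PM2.5 libraries (595, 618 and 870 reads). The lowest exposed library was above the highest control, and in FPKM control replicate 2 stood within 1.25-fold of the mean of the other controls. The means were 3.29 ± 0.483 and 8.46 ± 1.78 FPKM (SD, n = 3 each), a ratio of 2.57. Its log2 fold change was 1.13 ± 0.21 (SE), with limma adjusted p = 0.327, and 1.22 ± 0.17 without control replicate 2, with limma adjusted p = 0.0652, so it did not pass in either fit. In the latter fit it passed when PM2.5 replicate 3 was also left out (log2 fold change 1.07, limma adjusted p = 0.000696). The number of all genes called rose as well without that library. Ptgs2 did not pass when PM2.5 replicate 1 or 2 was left out instead. Leaving out each further library gave it a log2 fold change of 1.07 to 1.30.

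Nfkbia encodes the inhibitor of NF-kB that NF-kB itself induces. It was at 35.9, 49.1 and 33.1 FPKM in the control libraries and at 32.7, 33.2 and 26.7 FPKM in the PM2.5 libraries. The groups overlapped narrowly, with control replicate 2 highest, and the log2 fold change was -0.33 ± 0.23 (SE; limma adjusted p = 0.875) and -0.16 ± 0.13 without that library (limma adjusted p = 0.590).

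The remaining members were at or near 0. Ccl4, Ccl6, Ccl8, Ccl11, Ccl17, Ccl20, Ccl28, Cxcl15, Cxcl17, Il1a and Tnf had at least 1 read in some library and at most 6. Il1b, Ccl1, Ccl3, Ccl12, Ccl19, Ccl22, Ccl24, Ccl26, Ccl27 and Csf2 had 0 reads in all 6 libraries. The 3 member identifiers on unplaced scaffolds included all those of Ccl27. Its counts of 0 therefore do not cover Ccl27a, which was not a member. A count of 0 in a library allows up to 3 reads. Over whole chromosomes, 5 of the 15 members on chromosome 11 and 4 of the 11 on chromosome 5 were tested.

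The receptors of these ligands were compared with the ligands in the same libraries. None of 22 chemokine receptor genes reached the filter, 10 of them had 0 reads in every library, and their summed FPKM was 0.568 to 1.08 in the control group and 0.802 to 1.28 in the PM2.5 group. Ccr2 had 0 reads in all libraries, and Cxcr3 had 1 read in control replicate 3 and 0 elsewhere. Cxcr4, the signalling receptor of CXCL12, had 0 to 4 reads per library, and Ackr3, which binds the same ligand, had 1 read in control replicate 2 and 21 to 35 in the others. Csf1r, the receptor of CSF1, was at no more than 0.0692 FPKM. By contrast Il6st, the shared signalling subunit of the LIF and IL-6 receptors, was at 33.5, 13.3 and 32.8 FPKM in the control libraries and at 33.4, 34.8 and 34.6 FPKM in the PM2.5 libraries, with Lifr at 0.265 to 0.970 FPKM.

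**Figure D4:**
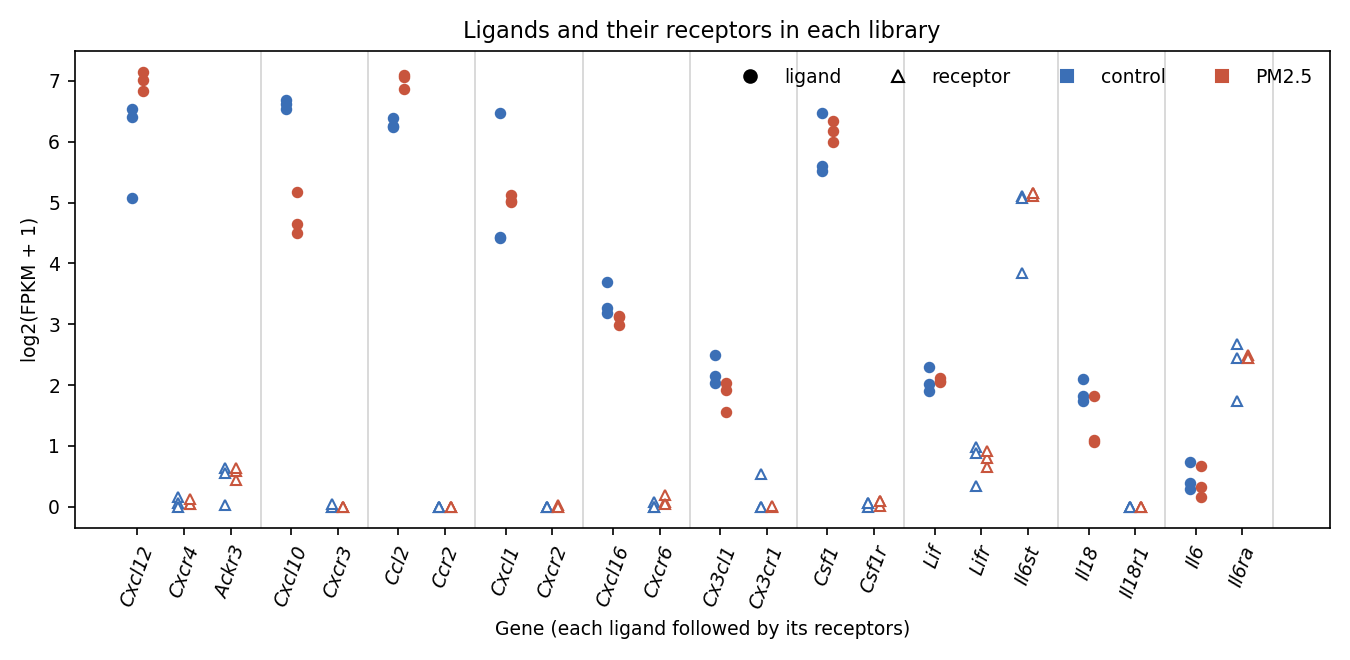
Levels as log2(FPKM + 1) of 10 ligands (filled circles) and of their receptors (open triangles) in each control (blue) and PM2.5 (red) library. The chemokine receptors and Csf1r lay near 0 in both groups beside abundant ligands, while Il6st (13.3 to 34.8 FPKM) and Il6ra (2.35 to 5.38 FPKM) were expressed.

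Of 98 other genes of these pathways (receptors, NF-kB components, pattern receptors, cytokine antagonists and decay factors, prostaglandin enzymes), 57 were tested and 0 were called in either fit. By unadjusted limma p, 3 were higher with 6 libraries (Il1rl1, Ikbkg and Nfkbiz) and 0 lower, and 7 were higher and 3 lower (Il11ra1, Il18bp and Tlr3) without control replicate 2. Of all genes, 3.8% and 15.9% had such a p in the 2 fits, near the shares of these lists. The pathway genes just listed were all named from their values. Tlr3 alone was named by the rule that takes the largest absolute log2 fold change of each list with 6 libraries. Il1rl1 passed the mean filter only through the PM2.5 group, which is the group where it was high. Its mean was 0.562 FPKM in the control group and 1.61 FPKM in the PM2.5 group. Among 18 tested NF-kB genes, 2 were higher by unadjusted p with 6 libraries, and the largest fold change in that fit was that of Tnfaip3, which encodes a deubiquitinase that restrains NF-kB. It was at 6.40, 1.70 and 5.83 FPKM in the control libraries and at 8.50, 8.43 and 8.66 FPKM in the PM2.5 libraries, with a log2 fold change of 0.89 ± 0.41 (SE; limma adjusted p = 0.875), or 0.42 ± 0.09 without control replicate 2 (limma adjusted p = 0.128). Nfkbiz, which encodes an atypical inhibitor of the NF-kB family, was the largest without that library, at 0.62 ± 0.09 (limma adjusted p = 0.0652), and stood at 0.62 ± 0.16 with 6 libraries (limma adjusted p = 0.699). Among 13 tested pattern receptor genes the largest with 6 libraries was that of Tlr3, which senses double-stranded RNA. Tlr3 was at 8.92, 3.61 and 8.201 FPKM in the control libraries and at 3.47, 3.84 and 5.07 FPKM in the PM2.5 libraries. Only control replicate 2 was within the exposed range, and the log2 fold change was -0.56 ± 0.34 (SE; limma adjusted p = 0.875) and -0.91 ± 0.16 without it (limma adjusted p = 0.0953).

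In the remaining lists the leading gene with 6 libraries had a smaller absolute log2 fold change without control replicate 2. Zfp36l2 and Pla2g4a led their lists in both fits, and Csf2ra led the cytokine receptors only with 6 libraries. Zfp36l2, which encodes an mRNA decay factor, was at 43.0, 15.7 and 47.6 FPKM in the control libraries and at 80.5, 79.9 and 44.4 FPKM in the PM2.5 libraries (log2 fold change 1.02 ± 0.49, limma adjusted p = 0.875). Its value was 0.53 ± 0.29 without control replicate 2 (limma adjusted p = 0.446). Pla2g4a, the phospholipase that releases arachidonic acid for Ptgs2, was at 8.13, 3.76 and 8.05 FPKM against 9.22, 11.4 and 12.2 FPKM. The PM2.5 libraries were all above the controls, with a log2 fold change of 0.69 ± 0.31 (SE; limma adjusted p = 0.875) and 0.38 ± 0.14 without control replicate 2 (limma adjusted p = 0.285). Csf2ra, a subunit of the GM-CSF receptor, was at 5.30, 46.1 and 3.51 FPKM in the control libraries and at 8.72, 5.52 and 3.11 FPKM in the PM2.5 libraries, so that its log2 fold change of -0.79 ± 0.92 (limma adjusted p = 0.875) became 0.26 ± 0.39 without control replicate 2 (limma adjusted p = 0.776).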

How the data were processed

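The authors sequenced RNA of 6 GC-2spd libraries and deposited FPKM values per gene identifier for each. Per the labels, HISAT2 2.0.5 and featureCounts 1.5.0-p3 were used with the genome build mm9. The identifiers were matched to GENCODE M21 on GRCm38, which gave symbols, positions and lengths (54495 of 54886 genes). Multiplying FPKM by length gave whole reads, within 0.02 reads, for 98.0% to 98.1% of values under 50 reads. How overlapping genes and strand were treated is not given in the sources used here.

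Those genes whose FPKM averaged 1 or more over the 6 libraries were tested with limma 3.58.1 (R 4.3.3; trend, robust) on log2(FPKM + 1), with all libraries and without control replicate 2, and p-values were adjusted by Benjamini-Hochberg over 11884 genes. The procedure was checked on simulated data in which all libraries shared the same depth and, apart from the genes changed, the same means. No simulated library departed as control replicate 2 did, so the check does not cover the real fit with that library. The 95% interval of the Cxcl9 ratio is exact for counts and covers counting error only. Alternatives were other filters (none, a mean of 0.1, 10 reads in every library), a pseudocount of 0.1, other scalings, voom, the replicate block, no fold threshold and leaving out each library.

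The text names each member over the filter and those under it with at least 10 reads in a library. In each pathway list it names the tested gene with the largest absolute log2 fold change with 6 libraries, or a call. Outside this rule, Nfkbiz, Il1rl1, Ikbkg, Il11ra1 and Il18bp were named after their values were seen. Some receptors were also named beside their ligands. The members and lists were chosen with earlier results of these data known.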

Additional observations from a re-analysis of the deposited data

How the results depend on the processing

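Cxcl10 kept its direction under all alternatives, with a log2 fold change of -2.04 to -1.70 (limma adjusted p = 0.0450 to 0.988 over alternatives) with 6 libraries and -2.03 to -1.70 without control replicate 2 (limma adjusted p = 0.00019 to 0.520). With 6 libraries, leaving out 1 library gave 0 to 1 members called (1, Cxcl10, without control replicate 2) and 0 to 84 of all genes called, where 11 were called in all. Of all genes, 0 were called with no filter (875 at an unadjusted p under 0.05), 4 with a mean FPKM of at least 0.1, 1 with at least 10 reads in every library, 6 when scaled to recovered total reads (3 higher and 3 lower, against 4 higher and 7 lower, with the median of all genes shifted by 0.11), and 0 with voom (453 unadjusted). Without control replicate 2, 0 members were called with no filter or with a mean FPKM of at least 0.1 (8 unadjusted in each), and 40 of all genes with no filter, against 84. Leaving out 1 further library there gave 0 to 2 members (2, Cxcl10 and Ptgs2, without PM2.5 replicate 3), 0 to 356 of all genes (356 without PM2.5 replicate 3 and 0 without any of the other 4 libraries) and 0 to 1 pathway genes (Tlr3, without PM2.5 replicate 3).

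The direction reversed for Cxcl1 with 6 libraries when scaled to total reads (0.081), under quantile normalization (0.087) and, leaving out libraries, over a range of -0.39 to 0.63. It reversed for Lif under quantile normalization (-0.020) and over -0.073 to 0.12 leaving out libraries, and in the fit without control replicate 2 over -0.20 to 0.059. In that fit, leaving out a further library gave -0.26 to 0.33 for Ccl7 and -0.067 to 0.27 for Cxcl5.

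Replicate numbers are shared between the groups, and whether they pair the libraries could not be decided. The correlations of same-numbered deviations from the group means were -0.285, 0.180 and 0.253, and those of other pairs ran from -0.280 to 0.292. Control replicate 2 shifts the control mean and so every control deviation, which is why these values cannot settle it. With the replicate block, 0 members and 0 of all genes were called with 6 libraries (335 unadjusted). Without control replicate 2 the block gave 2 members (Cxcl10 and Ptgs2) and 92 of all genes, and Cxcl5 at -0.013. PM2.5 replicate 2 then has no partner. Among members, the ranking by fold depended on the scale: Ccl5 (-1.889) exceeded Cxcl10 (-1.875) with a pseudocount of 0.1, and Cxcl14 (-1.903) exceeded Cxcl10 (-1.879) under voom, with 6 libraries. Members below the filter entered only the fits with a lower or no filter.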
